A study of Mus musculus with 14 samples.

Results

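A set of 709 short, strongly marked regions assigned to protein-coding genes was examined in H3K4me3 ChIP-seq data from mouse cerebral cortex. They were taken from 14881 regions with values, of which 11113 carried a coding transcript in the deposited tables. A region was included where it was 1000 to 1799 bp wide and its mean signal over the 4 postnatal saccharin libraries lay between 180 and 3000. The members were thus selected on width and on signal in those libraries, and their level there is no finding. The 709 regions carried 709 different gene symbols and made up 11.3% of the 6275 coding-gene regions of that width. The signal is a read count per region that the submitters had adjusted with edgeR, so it is not whole and grows with region width.

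The mice were C57BL/6J of 3 months, with no transgene or deletion named, and the tissue was bulk cortex. There were 4 groups. The postnatal-only nicotine and postnatal-only saccharin groups had 4 libraries each, and the nicotine and saccharin groups exposed before and after birth had 3 each. Saccharin, a sweetener given in the drinking solution, was the control within each exposure. The protocol text is the same in every group: solution was given to pregnant mice from conception, withdrawn from offspring at day 21, and the animals were then kept to day 90. Nothing but the group names tells of a postnatal-only course. No label states that libraries come from separate animals or litters, so p-values measure the spread between these libraries, which may be technical.

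H3K4me3, trimethylation of lysine on histone H3, is written by the SET/MLL family of methyltransferase complexes and lies around the start sites of active or poised genes, mostly at CpG islands. CpG islands stay largely free of DNA methylation and recruit these complexes through proteins that bind unmethylated CpG. The width of the mark varies: wide domains are known at genes of cell identity, and short ones at many genes that every cell uses. In bulk tissue, a mark on fewer cells and a weaker mark per cell cannot be told apart.

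Promoter sequences of 6 of these genes show how far they range in base composition. Eif4e and Gapvd1 are shown for their high signal per kb, and Cnih (Cnih1 in the reference), Adpgk, Rbbp4 and Zfp664 for their low p-values in the treatment comparison below. Each is the 250 bases before the RefSeq start on build GRCm38.p6, 5′ to 3′ on the gene's strand. Capitals mark every match, on either strand, to one of 8 short motifs: GGGCGG (the GC box bound by SP and KLF factors), CCGGAAG (ETS core), CCAAT (bound by NF-Y), GCATGCG (NRF1 core), TGACGTC (cAMP response element core), GATGGCG (YY1 core), CACGTG (E box) and TATAAA (core promoter box bound by TBP).
Eif4e (chr3:138525941-138526190, plus strand): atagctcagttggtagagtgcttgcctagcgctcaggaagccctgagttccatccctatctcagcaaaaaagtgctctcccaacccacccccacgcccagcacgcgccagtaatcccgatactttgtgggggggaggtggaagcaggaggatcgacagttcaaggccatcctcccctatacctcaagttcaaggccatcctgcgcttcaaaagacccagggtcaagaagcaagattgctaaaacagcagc
Gapvd1 (chr2:34755233-34755482, minus strand): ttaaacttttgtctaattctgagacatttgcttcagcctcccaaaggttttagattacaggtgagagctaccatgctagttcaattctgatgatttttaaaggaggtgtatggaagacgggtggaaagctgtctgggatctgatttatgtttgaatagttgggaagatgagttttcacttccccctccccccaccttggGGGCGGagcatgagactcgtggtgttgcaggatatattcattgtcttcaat
Cnih (chr14:46788358-46788607, minus strand): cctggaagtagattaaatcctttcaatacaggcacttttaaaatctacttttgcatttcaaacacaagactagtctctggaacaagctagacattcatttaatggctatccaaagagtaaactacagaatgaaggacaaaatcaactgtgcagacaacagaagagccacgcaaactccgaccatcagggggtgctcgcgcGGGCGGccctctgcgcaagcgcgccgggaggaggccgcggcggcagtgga
Adpgk (chr9:59291322-59291571, plus strand): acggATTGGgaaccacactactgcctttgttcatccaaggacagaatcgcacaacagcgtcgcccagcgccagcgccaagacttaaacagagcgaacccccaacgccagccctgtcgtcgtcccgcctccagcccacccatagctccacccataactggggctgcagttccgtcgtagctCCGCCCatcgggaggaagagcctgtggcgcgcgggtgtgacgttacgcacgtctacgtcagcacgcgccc
Rbbp4 (chr4:129335371-129335620, minus strand): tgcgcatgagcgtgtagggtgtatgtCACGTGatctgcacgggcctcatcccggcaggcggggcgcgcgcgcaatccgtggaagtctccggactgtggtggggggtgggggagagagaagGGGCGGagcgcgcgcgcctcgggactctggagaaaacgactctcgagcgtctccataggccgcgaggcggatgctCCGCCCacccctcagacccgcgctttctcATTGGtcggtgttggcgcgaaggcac
Zfp664 (chr5:124862455-124862704, plus strand): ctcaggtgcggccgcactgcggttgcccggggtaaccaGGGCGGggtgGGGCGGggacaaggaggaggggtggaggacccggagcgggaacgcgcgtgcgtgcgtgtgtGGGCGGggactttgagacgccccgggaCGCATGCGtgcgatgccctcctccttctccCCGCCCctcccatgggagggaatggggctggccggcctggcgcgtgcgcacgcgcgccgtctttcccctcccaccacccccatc

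The windows held 3 to 30 CpG. Gapvd1, which encodes an endocytic activator of Rab GTPases, had 43.2% GC and 3 CpG, with 1 GC box. Eif4e, the mRNA cap-binding protein, had 54.8% GC, 7 CpG and no match to the 8 motifs, and the reference listed 2 starts for this gene, of which the first is shown. At the other end stood Zfp664, a zinc finger gene, with 74.0% GC, 28 CpG, 4 GC boxes and an NRF1 core that reads on both strands, and Rbbp4, a histone chaperone of several chromatin complexes, with 67.6% GC, 30 CpG, 2 GC boxes, 1 NF-Y motif and 1 E box. The deposited regions are on build mm9, and their overlap with these windows was not analysed here, nor were exons, introns or UTRs within them. A match is a description of letters and not of factor binding.

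In other respects the libraries were uneven. The sum over regions ran from 2004918 to 2489860 after postnatal and from 1445810 to 2372855 after pre- and postnatal exposure; raw depth is unknown, so no counting interval is given. The 15 regions whose mean of the postnatal saccharin and nicotine means was over 3000, none of them in the set, held 8.30% to 25.5% of the signal of each postnatal library and 19.1% to 49.7% in the others. Between libraries 1 and 2 of each postnatal group, as between 3 and 4, the variance was 1.01 to 1.08 times what counting noise gives, and 2.21 to 2.71 times between the other postnatal pairs. Over the regions of the set it was 1.00 to 1.16 times counting noise within these pairs and 2.65 to 3.42 times between the others. Libraries 1 and 2, and 3 and 4, differed by little more than sampling noise and were counted as 1 sample each. Of the 7 cell type marker lists, the blood list had no measured gene and the other lists had 3 to 17, so cortical and non-neuronal identity could be checked only in part.

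Levels in libraries that the selection did not use are given as a description, since the width and signal limits also fix how dense each class can be. In saccharin libraries of the pre- and postnatal exposure their median signal was 129.8 per region and 81.6 per kb. The 5566 weaker regions of the same width had a median of 26.2 per kb, and the 2279 strongly marked regions of 1800 bp or more had 69.8 per kb. The nicotine libraries of that exposure gave 84.4, 27.4 and 71.6 per kb in the same order. Both other classes differ from the set by the selection: in the postnatal saccharin libraries the lowest density was 100.9 per kb in the set and 51.3 per kb in the wide class.

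**Figure D1:**
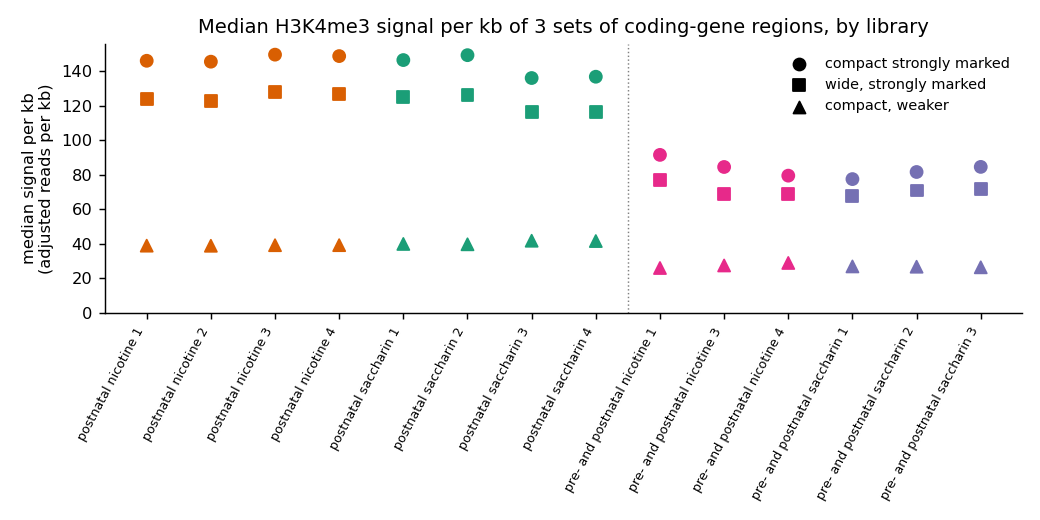
Median signal per kb (vertical axis, adjusted reads per kb) in each of the 14 libraries for the compact strongly marked, wide strongly marked and compact weaker coding-gene regions; the dotted line parts the 2 tables, which were adjusted separately. The median of the set runs from 136.1 to 149.7 (postnatal) and from 77.5 to 91.5 (pre- and postnatal); the 4 postnatal saccharin libraries chose the set, and the width and signal limits bear on the order of the classes.

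High signal carried over between groups. By group mean, all 709 regions lay above the median of coding-gene regions in postnatal nicotine, in pre- and postnatal saccharin and in pre- and postnatal nicotine libraries. These medians were 94.2, 60.2 and 61.3. Single values lay lower, down to 41.4 in nicotine library 3 of the pre- and postnatal exposure. Among the 709 strongest compact regions of each of these groups, 656 (92.5%), 623 (87.9%) and 595 (83.9%) belonged to the set. Choosing with the postnatal nicotine libraries in place of saccharin found 770 regions, and 683 of them were in the set (96.3% of it). Just inside the lower limit lay Tmcc3 at 180.1, BC057079 at 180.2 and 2900073G15Rik at 180.3, and just outside it Gabarapl2, Lipt2 and Zfp202, the latter pair at 179.8. At the upper width limit Rif1, Ptprf and Gatad2a were 1799 bp wide, and E2f1 with 1800 bp fell outside.

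Within the set the mark was graded, with 4 regions far above the rest. Widths ran from 1062 to 1799 bp (median 1657). Leaving those 4 aside, the highest density in pre- and postnatal saccharin libraries was at Eif4e, with 191 per kb. The signal of this region (mm9, chr3:138189934-138191340) was 268.4, 279.4 and 259.2 with saccharin and 347, 300.7 and 272.8 with nicotine. Gapvd1 followed (chr2:34608904-34610606) with 271.5, 317.2 and 251 against 319.5, 279.7 and 248.3. The treatment groups overlapped at both regions. Next came Etnk1, an ethanolamine kinase, at 159.8 per kb, Eif5, which promotes GTP hydrolysis in start codon selection, at 159.3, Fam63b (Mindy2), a deubiquitinase, at 146.3, and Pwwp2a, which binds nucleosomes with the histone variant H2A.Z, at 145.0.

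The weakest regions by rank in those libraries were still above 60.6% of coding-gene regions. They were Dnajc13, a co-chaperone of endosomes, at 78.3 ± 8.32 (SD, n = 3), Eif4g3, a translation initiation scaffold, at 79.0 ± 13.4, Samd4b at 79.1 ± 29.3, Ankhd1 at 82.2 ± 7.50 and Rpl5, a protein of the large ribosomal subunit, at 83.1 ± 16.4. Samd4b varied widely, with 110.1, 75.4 and 51.9 in the 3 libraries.

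The 4 regions that stand apart had 567 to 3531 per kb, and were set beside the share of a library's signal in the 15 strongest regions described above. They are assigned to 2210408I21Rik (chr13:77577712-77578845), Cdk5rap2, a centrosomal protein (chr4:70038789-70039851), Mdga2, a synaptic adhesion protein (chr12:68159849-68161418), and Ank1, an ankyrin (chr8:24205550-24206685). At 2210408I21Rik the signal was 1737, 7621 and 5395 in the nicotine libraries 1, 3 and 4 of the pre- and postnatal exposure, where the 15 regions held 19.1%, 49.7% and 41.9% of the signal. It was 5229, 2971 and 3801 in saccharin libraries 1 to 3, with shares of 39.9%, 28.8% and 33.1%. The order of its 6 libraries was that of their shares, while at Ank1 saccharin library 3 (758.3) lay above library 1 (688.6), which had the higher share. The 4 regions held 1.10% to 13.3% of the set's summed signal. What these values come from was not tested, and no value here shows these 4 to be promoter signal.

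**Figure D2:**
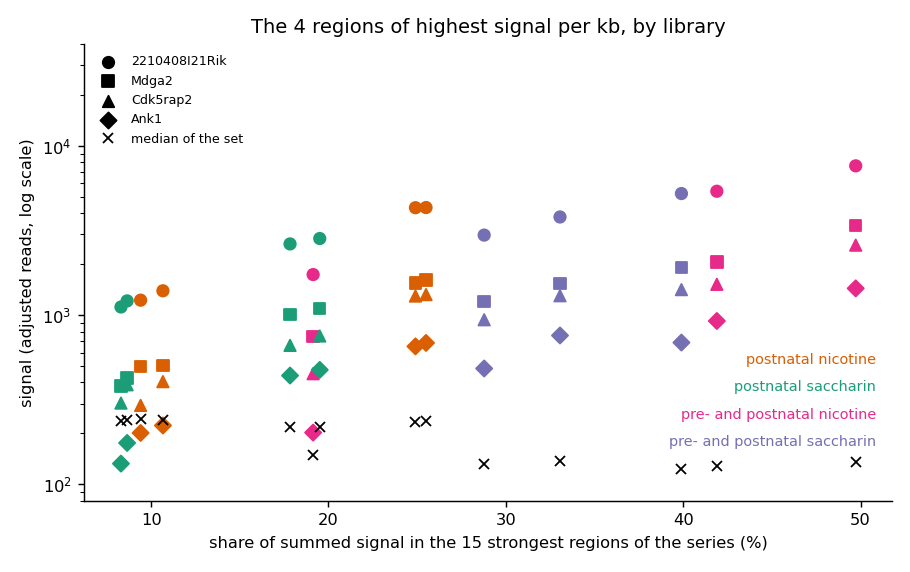
Signal of the 4 regions of highest density (vertical axis, adjusted reads per region, log scale) against the share of summed signal held by the 15 strongest regions of the series (horizontal axis, %), 1 point per library and region, coloured by group; crosses give the median of all 709 regions. Values tend to lie higher where the share is high, with exceptions such as Ank1 in saccharin library 3 of the pre- and postnatal exposure (758.3), while the median of the set stays between 217.4 and 242.0 (postnatal) or 123.9 and 148.8 (pre- and postnatal).

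By function, the set held the largest shares of 3 lists, translation factors, kinases and chaperones, among genes with a compact region, and no gene of the pan-neuronal or synaptic lists. These counts come from the selection and are a description. The lists do not hold every gene of a function. Lrfn1, a synaptic adhesion molecule, and Tanc1, a postsynaptic scaffold, are on none of the neuronal lists but were in the set. Of all measured coding genes 6.89% had a region in the set, and of those with a compact region 11.8%. Of 52 measured translation initiation and elongation factors 14 were in the set (14 of 33 with a compact region). For heat shock proteins and chaperones it was 11 of 54 (11 of 35), and for signalling kinases 9 of 70 (9 of 23). It was 0 of 34 pan-neuronal, 0 of 43 presynaptic and 0 of 47 postsynaptic and receptor genes, although 17, 16 and 27 of them had a compact region. Strong regions of these genes were wide ones: 12 pan-neuronal, 12 presynaptic and 9 postsynaptic genes had a strongly marked region of 1800 bp or more. Such wide regions were common elsewhere too, with 2279 in all. They were at 37 kinase, 49 chromatin, 33 trafficking and 12 chaperone genes, against 9, 10, 9 and 11 genes in the set. Fewer genes had one than were in the set only for translation factors (12 against 14) and ribosomal proteins (4 against 7).

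The compact regions of whole lists could be compared in the pre- and postnatal saccharin libraries, which the selection did not use. The median density over all compact regions of a list was 51.3 per kb for the 23 of the kinases, 47.2 for the 33 of translation factors and 43.3 for the 36 of chaperones. Over all 6275 compact coding-gene regions it was 28.4. It was 30.2 for RNA polymerase II machinery and for DNA replication and repair, 31.7 for the respiratory chain, 33.9 for ribosomal proteins, 34.8 for proteasome and ubiquitin genes, 36.8 for splicing factors, 39.9 for chromatin genes, 41.4 for membrane trafficking and 27.0 for activity-regulated genes. It was 23.6 per kb for the 19 of pan-neuronal, 26.1 for the 19 of presynaptic and 23.4 for the 32 of postsynaptic genes. With each gene's strongest region of any width, the medians of these 3 lists were 35.1, 34.9 and 31.2 per kb. By that measure RNA polymerase II machinery had 31.6, DNA replication and repair 30.2 and ribosomal proteins 36.1. Translation factors had 50.4 and kinases 62.7. The densest compact region of those 3 neuronal lists reached 60.0 per kb, against 191 per kb among translation factors.

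**Figure D3:**
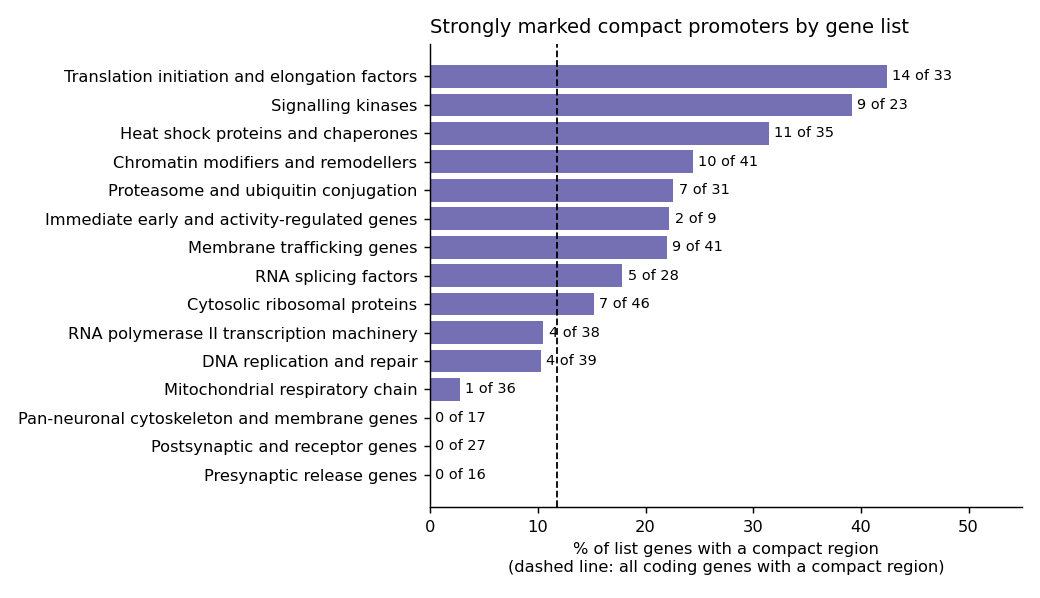
Share of list genes with a compact region that were in the set (horizontal axis, %), for 15 functional gene lists, with the counts beside each bar; the dashed line marks all coding genes with a compact region (11.8%). Translation factors stand at 14 of 33 and kinases at 9 of 23, and the 3 neuronal lists at 0.

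Translation factors in the set spanned several steps of the process. Besides Eif4e and Eif5 they held the eIF3 subunit genes Eif3b, Eif3c, Eif3f, Eif3g and Eif3j, the scaffold Eif4g3, the helicase cofactor Eif4b, the cap-binding repressor Eif4ebp2, the hypusinated factors Eif5a and Eif5a2, the termination factor Gspt1 and the stress kinase Eif2ak3. Their density in pre- and postnatal saccharin libraries ran from 45.0 per kb at Eif4g3 to 191 per kb at Eif4e, with a median of 96.0. Eif5a held a signal of 229.7 ± 26.5 (SD, n = 3), Gspt1 205.3 ± 17.8 and Eif3c 85.1 ± 21.8. Per kb, Eif4e (191) and Eif5a (129.5) stood above Eif3c (60.3) and Eif4b (54.3), the last of which held 94.1 ± 23.7 per region.

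Cytosolic ribosomal proteins gave 7 of 69 (10.1%), among them Rpl17 at 149.6 ± 10.9 (SD, n = 3). The mitochondrial respiratory chain had 1 of 60, Atp5g3, a subunit of the membrane ring of ATP synthase, at 138.0 ± 7.01. Chaperones were led by Dnajc25 (201.2 ± 6.00) and Dnajc8 (169.7 ± 15.6) and included the heat shock factor Hsf2 (91.0 ± 8.75). The 9 kinases included both catalytic subunits of casein kinase II, Csnk2a1 (187.0 ± 22.4) and Csnk2a2 (198.5 ± 39.1), with the MAP kinase pathway members Map3k3 (223.7 ± 23.5), Map2k4 (164.9 ± 5.39) and Map2k2 (119.5 ± 7.17).

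Chromatin genes in the set numbered 10 of 106, with the cohesin subunit genes Smc3 (184.9 ± 6.88) and Rad21 (124.8 ± 13.9), the deacetylases Sirt7 (162.9 ± 36.9) and Hdac5 (138.4 ± 21.9), the H3K9 demethylase genes Kdm3b and Kdm4b, and H3f3b, which encodes histone H3.3. Membrane trafficking gave 9 of 85, among them the GTPases Rab2a, Rab5a and Rab23 and the ESCRT ATPases Vps4a and Vps4b. Proteasome and ubiquitin genes gave 7 of 63, splicing factors 5 of 69, RNA polymerase II machinery 4 of 53, and DNA replication and repair 4 of 51. The activity-regulated genes gave 2 of 37, Nr4a2, an orphan nuclear receptor (135.2 ± 13.6), and Sik1, a salt-inducible kinase (104.4 ± 6.68). Of the cell type markers the set held only Tle4, a corepressor of deep cortical layers (168.5 ± 5.58), 1 of 17 projection neuron and layer markers, and none of the interneuron, astrocyte, oligodendrocyte, microglia or endothelial markers.

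A single X-linked gene was in the set. It was Sms, spermine synthase, with a postnatal saccharin mean of 186.5, and it was 1 of 233 compact X-linked coding-gene regions (0.429%), against 708 of 6042 on autosomes (11.7%). Among autosomes the share ran from 8.13% on chromosome 7 to 15.8% on chromosome 16. The next X-linked regions, at Otud5 (179.6) and Fmr1, which encodes the RNA-binding protein lost in fragile X syndrome (163.7), fell under the limit. In pre- and postnatal saccharin libraries the compact X-linked regions had a median signal of 25.9 and the autosomal ones 42.2, and in nicotine libraries 28.2 and 43.8. Wide X-linked regions were likewise seldom strongly marked, with 8 of 73 (11.0%) against 2271 of 4082 (55.6%). The labels do not give the sex of the animals, and X-linked dosage was not tested.

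Promoters of the set were CpG-rich. RefSeq promoters (250 bases before to 50 after the start, GRCm38.p6) were matched for 575 of the 709 genes (81.1%) and for 81.0% of the wide strongly marked regions. For the weaker compact regions the match was 79.8%, under the 80% needed, so the check against them is void and their values are only set beside. Median GC was 63.0% in the set and 68.7% in the wide class, with 59.5% in the weaker compact class. The ratio of observed to expected CpG was 0.85, 0.89 and 0.72. The criterion was GC of at least 50% with a CpG ratio of at least 0.6. It was met by 84.3% of the set, 87.0% of the wide class and 65.0% of the weaker class. Of all 8841 matched coding-gene regions, which include the weaker class, 71.0% met it, and of all 32851 promoters of the reference 33.5%. Over all matched compact regions ordered by density in pre- and postnatal saccharin libraries, the share meeting it was 51.4%, 65.2%, 72.0% and 80.2% from the lowest to the highest of 4 equal groups.

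The motifs were found at uneven shares. Here NF-Y motif means the CCAAT letters and TBP motif the TATAAA letters. The GC box was in 74.3% of the set, 78.3% of the wide class, 63.5% of the weaker class and 35.7% of all reference promoters. In that order the NF-Y motif was in 38.6%, 32.2%, 40.7% and 37.4%, and the ETS core in 17.2%, 13.6%, 17.6% and 8.86%. The weaker compact class, whose values are only set beside, had a share of the ETS core close to that of the set. The NRF1 core, read by a regulator of mitochondrial and housekeeping genes, was in 10.4% of the set, 6.61% of the wide class, 6.77% of the weaker class and 3.58% of all. The TBP motif was in 7.30%, 4.07%, 7.45% and 13.6% in that order. The cAMP response element core was in 5.74%, 6.61%, 5.67% and 3.21%, the YY1 core in 9.39%, 6.99%, 6.05% and 3.49%, and the E box in 12.7%, 10.5%, 10.2% and 7.15%. In all 8841 matched coding-gene regions the GC box was in 67.5%, the NF-Y motif in 38.0% and the ETS core in 16.0%. The NRF1 core was in 6.75% of them, the TBP motif in 6.80% and the cAMP response element core in 5.80%. For the YY1 core it was 6.37% and for the E box 10.2%. No test was made of these shares, which depend on GC content.

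Replicate libraries agreed more closely at these regions than at weaker ones of the same width. The median SD of log2 signal over the 3 pre- and postnatal saccharin libraries was 0.16 in the set, 0.26 in the weaker compact class and 0.13 in the wide class. With nicotine it was 0.21, 0.35 and 0.19. Reading the adjusted values as counts, the median SD expected from counting noise was 0.13, 0.23 and 0.11 with saccharin, the same order. With nicotine it was 0.12, 0.23 and 0.11. These are expected SDs and not medians of SDs over 3 libraries, so the excess of each class cannot be read from them.

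The treatment comparison independent of the selection asked whether nicotine before and after birth left a difference in the adult cortex. In the values as deposited, signal was higher with nicotine at more of these regions than it was lower, but no region passed the test. All 709 passed the filter on low values. The strongest single candidate was Cnih, which loads cargo into vesicles leaving the endoplasmic reticulum (chr14:47407020-47408483), with 187.7, 190.4 and 156.0 in nicotine libraries against 126.9, 120.7 and 113.7 with saccharin. The groups did not overlap. The difference was 0.56 ± 0.16 (SE) on the log2(value + 1) scale, with an adjusted p of 0.987 in limma over all regions.

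In limma 0 of 14879 regions were called at an adjusted p under 0.05, which is 0% of the background and includes 0 of the 709, with 0.987 as the lowest adjusted value. Unadjusted, 27 of the 709 had p under 0.05 (3.81%), against 3.59% of all regions. Of these 27, 23 were higher with nicotine (3.24%, background 1.72%) and 4 lower (0.564%, background 1.87%). Under quantile normalization 26 had p under 0.05 (3.67%, background 3.62%), 16 of them higher (2.26%, background 1.87%). The nicotine and saccharin libraries did not overlap at 63 regions (8.89%, background 8.95%), at 56 of them with nicotine higher (7.90%, background 4.49%) and at 7 with nicotine lower (0.987%, background 4.46%). This split depends on scaling and libraries: quantile normalization gave 44 higher (6.21%, background 4.12%) and 21 lower (2.96%, background 4.34%), and without nicotine library 1 it was 92 higher (13%, background 14%) and 99 lower (14%, background 14.3%). The median difference was 0.04 over the set, 0.03 over the wide class and 0.0027 over all regions tested, and 60.2% of the set lay above 0, against 50.5% of all regions and 59.8% of the wide class. The direction of the median rests on single libraries: it was -0.02 without nicotine library 1, -0.0077 without saccharin library 1 and -0.01 under quantile normalization, and 0.10 in the fit with a replicate block.

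In nicotine library 1 the 15 strongest regions also held least (19.1%), and the median of the set was highest (148.8, against 134.7 and 127.6 in nicotine libraries 3 and 4 and 123.9 to 136.6 with saccharin). Its ratio of the set's median to that of the weaker compact regions was 4.12, against 3.17 to 3.70 in the other 5 libraries. The part of this library's height in the differences was not tested beyond leaving it out. Without it, 17 regions were called over all (0.114%), and 1 of the 709 (0.141%). Of the 709, 71 had an unadjusted p under 0.05 (10%, background 11.4%), 35 of them higher (4.94%, background 5.99%). The 1 called was Ank1 (0.87 ± 0.18, SE, adjusted p = 0.0460 in limma). With all libraries Ank1 differed by 0.03, and it had the other sign without nicotine library 3 (-0.55). The unadjusted count was 17 without nicotine library 3 (2.4%, background 3.18%) and 11 without saccharin library 2 (1.55%, background 2.49%).

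**Figure D4:**
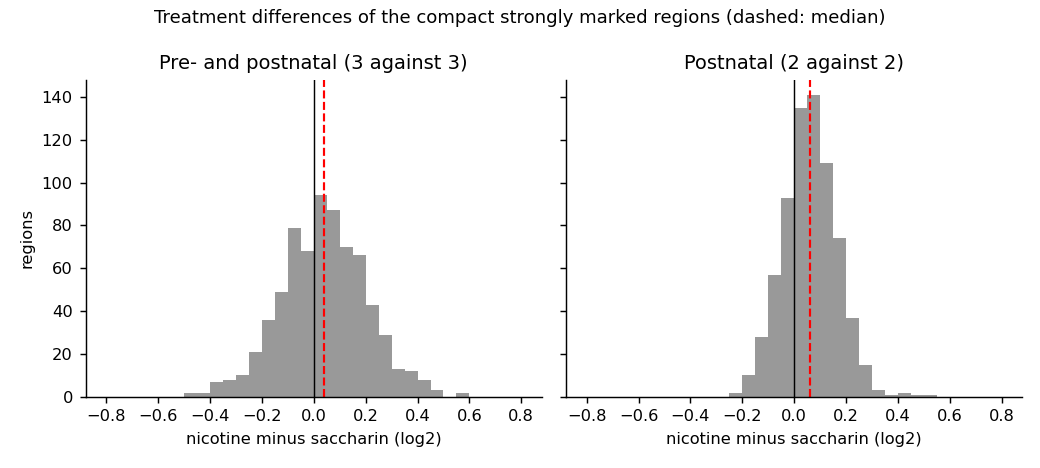
Number of regions (vertical axis) by nicotine minus saccharin difference (horizontal axis, log2 of value + 1) for the 709 regions in both exposures; the solid line is 0 and the dashed line the median. The median lies at 0.04 before and after birth and at 0.06 after postnatal exposure.

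Among the 10 regions of lowest p on the higher side, 9 had groups that did not overlap. Besides Cnih they were those of Crls1, cardiolipin synthase (0.48), Rrs1, a factor of ribosome assembly (0.46), Ext2, which elongates heparan sulfate chains (0.50), Azi1 (Cep131), a protein of centriolar satellites (0.45), Lrfn1, a synaptic adhesion molecule (0.43), Evl, an actin regulator (0.42), Gdi2, which extracts Rab GTPases from membranes (0.45), and Urgcp (0.39). Crls1 had 181.0, 218.7 and 158.0 with nicotine and 122.8, 132.3 and 140.8 with saccharin. Adpgk, an ADP-dependent glucokinase, differed by 0.58 ± 0.19 (SE) with overlap, since nicotine library 1 held 110.7 and saccharin library 3 held 120.0. These 10 were picked for their p, and none passed over all regions (adjusted p = 0.987 for each in limma).

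On the lower side the groups overlapped at 7 of the 10 regions of lowest p. Rbbp4 had 86.4, 67.3 and 57.9 with nicotine against 97.8, 85.4 and 113.7 with saccharin, a difference of -0.49 ± 0.20 (SE), and its highest nicotine value exceeded its lowest saccharin value. Without overlap lay Tanc1, a postsynaptic scaffold, with 80.6, 63.0 and 86.4 against 90.5, 104.1 and 110.6, Vti1b, a SNARE of endosomes (-0.40), and Zfp637 (-0.34). The others were Zfp664 (-0.39), Tspan3 (-0.37), Slc25a10, the mitochondrial dicarboxylate carrier (-0.43), Cecr5 (-0.36), Dnajb11, a chaperone of the endoplasmic reticulum (-0.48), and Stxbp6, which binds SNARE complexes (-0.34).

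**Figure D5:**
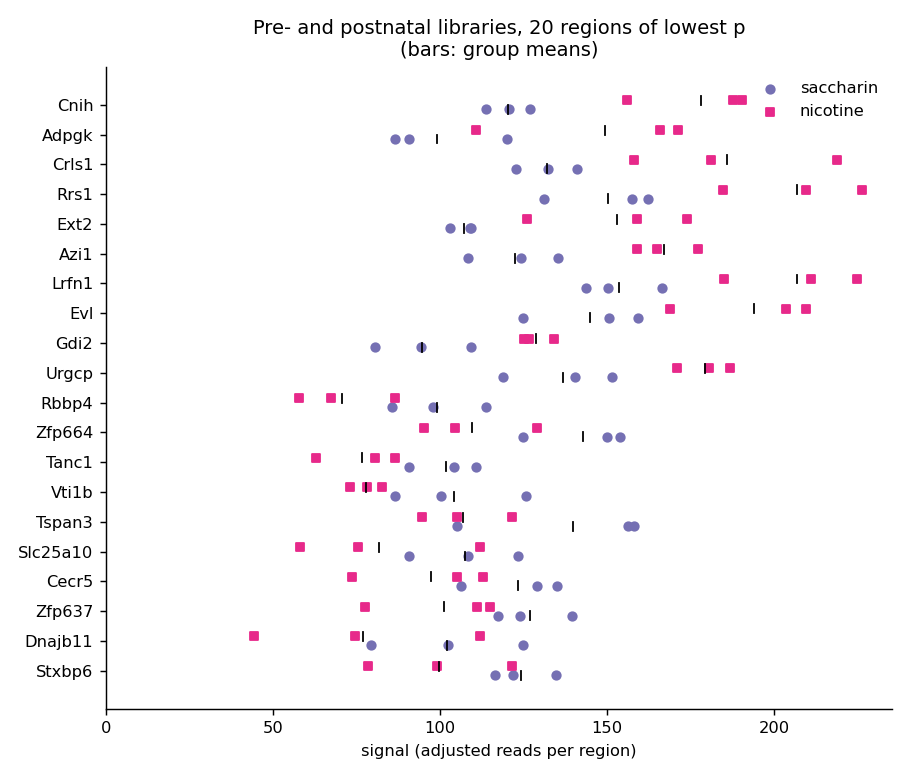
Signal (horizontal axis, adjusted reads per region) in the 3 nicotine (squares) and 3 saccharin (circles) libraries of the pre- and postnatal exposure at the 20 regions of lowest p, 10 in each direction; vertical ticks are group means. The upper 10 lie higher with nicotine and the lower 10 lower, and 12 of the 20 have groups that do not overlap.

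Called members cannot tell the functional lists apart, since 0 of 14879 regions were called in this fit in either direction. The median difference of the members in the set was 0.03 for the 14 translation factors (8 higher), 0.05 for the 11 chaperones (7 higher), 0.04 for the 10 chromatin genes (7 higher), 0.04 for the 7 ribosomal proteins (4 higher), -0.02 for the 9 trafficking genes (4 higher) and -0.10 for the 9 kinases (4 higher). Over all regions tested it was 0.0027, and over the whole set 0.04. All 74 tested regions of the kinase list had a median of 0.05. The 7 proteasome and ubiquitin members stood at -0.05 (3 higher) and the 5 splicing factors at 0.07 (3 higher). The 4 of RNA polymerase II machinery stood at 0.07 (4 higher) and the 4 of DNA replication and repair at 0.03 (2 higher). Lists with fewer members are left out. At an unadjusted p under 0.05 stood Rpl5 (0.44 ± 0.20, SE), Rab2a (0.30 ± 0.14) and Rbbp4 among list members. Rab2a, a GTPase of transport between endoplasmic reticulum and Golgi, held 252.1, 262.6 and 267.9 with nicotine and 215.3, 216.4 and 203.5 with saccharin, without overlap. Eif4e and Eif5 differed by 0.18 ± 0.14 and 0.13 ± 0.15, with overlapping groups.

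The postnatal comparison shares its saccharin libraries with the selection and is given as a description. In limma 0 of 14873 regions were called (0%), with 281 at an unadjusted p under 0.05 (1.89%) and 23 of them in the set, 22 higher (background 0.961%) and 1 lower (0.928%). Groups did not overlap at 240 of the 709 (33.9%, background 29.1%), at 209 with nicotine higher (29.5%, background 15%) and at 31 with nicotine lower (4.37%, background 14%), and the median difference was 0.06 against -0.0036 over all regions. The wide class was close to the set: 70.7% lay above 0, 26.9% higher and 7.02% lower without overlap, with a median of 0.05. Of the set 73.2% lay above 0, and 49.1% of all regions. Under quantile normalization 159 lay higher (22.4%, background 14.4%) and 82 lower (11.6%, background 14.3%) without overlap, and the median difference was 0.01. It was 0.12 without saccharin libraries 1 and 2 and 0.00028 without saccharin libraries 3 and 4. Rhou, a small GTPase, had 346.3 and 371.4 in the nicotine samples and 289.2 and 263.5 in the saccharin samples, the lowest p on the higher side, followed by Nek9, a mitotic kinase (0.33), Srcin1, an inhibitor of Src (0.32), Rpsa, a ribosomal protein (0.32), and Eif5 (0.28). On the lower side were Tra2a, a splicing factor, with 203.4 and 211.8 against 255.4 and 234.3, then Nadk, NAD kinase (-0.22), Fam114a2 (-0.20), Fgf12, which modulates sodium channels (-0.19), and Gsr, glutathione reductase (-0.18). In the pre- and postnatal libraries, which have their own controls, Rhou differed by -0.05 and Tra2a by -0.0096.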

How the data were processed

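H3K4me3 ChIP-seq libraries of cerebral cortex were read from 1 table per exposure, each adjusted on its own. Per the submitters' processing notes edgeR was used and the build was mm9; the aligner, peak caller and any version are not given in the sources used. What the authors deposited is a signal per region: adjusted read numbers, never negative and not whole. Whole reads could not be recovered, so depth is unknown. Each table held 19203 rows, of which 4322 without values were left out.

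Treatment was tested with limma 3.58.1 (trend, two-sided, R 4.3.3) on log2(value + 1) over all regions with at least 1 in at least 3 libraries, or 2 samples after postnatal exposure, with Benjamini-Hochberg adjustment and calls under 0.05. Pairs of postnatal libraries close to counting noise were averaged, leaving 2 against 2. Scaling by trimmed mean of M values, an alternative, was written out in R in place of the package function. Signal per kb is the signal divided by region width. Promoters and current symbols came from RefSeq tables (GRCm38.p6), using the first listed start. Figures were drawn with matplotlib 3.10.9.

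The members of the set, the gene lists, motifs and tests were chosen with earlier results of these data known. Genes were named by rule: the 10 of highest density, the 10 of lowest p per direction before and after birth without predicted genes, the 5 per direction after postnatal exposure, the 2 strongest per list, the 5 of lowest rank, and those next to the signal limit. Other list members, genes next to the width limit and X-linked genes were named after their values were seen. One gene that the rule names is not reported here. The sequences were to be those of the 2 densest regions and of 2 per direction; after their values were seen, the 4 regions that stand apart were passed over for these. Alternatives were another pseudocount, other scalings and filters, leaving out libraries, the replicate block, other limits and other promoter windows.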

Additional observations from a re-analysis of the deposited data

Results flagged for a closer look

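Gsr, which encodes glutathione reductase, was singled out because its libraries moved in opposite directions in the 2 exposures. Before and after birth its signal was 143.1, 122.5 and 138.4 with nicotine and 121.6, 118.4 and 83.7 with saccharin, a log2 difference of 0.33 without overlap (unadjusted p = 0.0771, adjusted p = 0.987 in limma). After postnatal exposure it was 186.8 and 171.6 with nicotine and 191.5 and 215.4 with saccharin, a log2 difference of -0.18 without overlap (unadjusted p = 0.146, adjusted p = 0.9998 in limma). The difference between the exposures was not tested. Of all 14871 regions tested in both exposures 183 had such opposite differences without overlap (1.23%), and of the 709 there were 2 (0.282%). Gsr was 1 of 65 named regions with this pattern, and its postnatal value was among those picked for low p.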

How the results depend on the processing

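Depth is unknown, which limits every statement on weak regions. In the pre- and postnatal comparison no region was called under any scaling, pseudocount or filter tried. With the replicate number as a block, 11 of the 709 had an unadjusted p under 0.05 (1.55%, background 1.91%) and 11 of these lay higher (1.55%, background 0.88%), with 27 and 23 without it; the libraries share only a number (r -0.10 and -0.08 between same-numbered libraries over regions), and only 2 numbers occur in both groups. Quantile normalization gave 21 regions lower without overlap, in place of 7. Leaving out each library gave 0 to 17 called regions (up to 0.114%) and 0 to 1 in the set (up to 0.141%). At an unadjusted p under 0.05 stood 11 to 71 of the set (1.55% to 10%, background 2.37% to 11.4%). Of these, 10 to 35 lay higher (1.41% to 4.94%, background 1.28% to 5.99%). Without overlap 78 to 125 lay higher (background 8.33% to 14%) and 11 to 99 lower (background 8.3% to 14.3%). The median difference was -0.02 to 0.09. Ank1 reversed to -0.40 under quantile normalization, -0.42 with the replicate block, -0.55 and -0.23 without nicotine libraries 3 and 4, and -0.16 without saccharin library 2, and was 0.87 and called without nicotine library 1. After postnatal exposure quantile normalization gave 82 lower without overlap, in place of 31. With 8 libraries as samples, 108 had an unadjusted p under 0.05 (15.2%, background 9.24%), 103 of them higher (background 4.95%), and 60 lay higher (8.46%, background 3.32%) and 2 lower (0.282%, background 2.69%) without overlap. The replicate block called 1 region (0.00672%), outside the set. Crossed pairing, added after seeing the data (r -0.49 between same-numbered samples), called 9 regions (0.0605%), 3 of them in the set (0.423%). It put 55 of the set at an unadjusted p under 0.05 (7.76%, background 7.15%), 53 of them higher (7.48%, background 3.15%). Leaving out each pair left 1 sample in a group, assumed to vary like the other group, so these fits cannot decide which regions differ. They gave 0 to 31 called regions (up to 0.208%) and 0 to 3 in the set (up to 0.423%). An unadjusted p under 0.05 was found at 15 to 68 of the set (2.12% to 9.59%, background 2.13% to 4.42%). Of these, 9 to 68 lay higher (1.27% to 9.59%, background 0.693% to 2.71%). Without overlap 249 to 477 lay higher (background 30.9% to 34.4%) and 48 to 220 lower (background 30.5% to 34.6%). The median difference was 0.00028 to 0.12. A lower limit of 220 left 396 regions. With only the 250 bases before the start, 77.6% met the CpG criteria, 67.8% had the GC box, 13.4% the ETS core and 3.83% the YY1 core; genes with 1 listed start, added after seeing the data, gave 87.7% for the CpG criteria. The cause of these changes was not tested.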
